A study of Mus musculus with 1298 samples.

Results

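The canonical Wnt pathway ends on DNA-binding proteins of the Lef/Tcf family, and 10 genes that mark this end of the pathway were followed through the *Pax7* lineage of mouse embryos. The rule that chose them lists their names and uses no measured value, but the names were chosen with earlier results of these data known. 4 encode the factors themselves (*Lef1*, *Tcf7*, *Tcf7l1*, *Tcf7l2*) and 6 encode feedback regulators (*Axin2*, *Nkd1*, *Nkd2*, *Wif1*, *Notum*, *Apcdd1*). All 10 were listed among the 17634 genes of the 10× table, the 22894 genes of the Smart-seq2 (ss2) table and the 22938 genes of the bulk table.

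When a secreted Wnt ligand binds its receptors at the cell surface, β-catenin escapes a cytoplasmic destruction complex and enters the nucleus, where it binds Lef/Tcf proteins and switches their target genes on. Without β-catenin the same proteins sit with corepressors and keep those genes off. Many targets encode inhibitors of the pathway, so that a cell receiving a Wnt signal also limits it. In embryonic skin, Wnt signaling from the surface ectoderm to the underlying mesenchyme is known to be needed for the dermal fibroblast fate, and the pathway is also known to act on muscle precursors, on adipogenesis and on the dorsal neural tube.

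The cells came from *Pax7CreER:R26R-stop-EYFP* embryos. In this line the *Pax7* gene drives a Cre recombinase that is active only after tamoxifen, and recombination switches on the fluorescent protein YFP for good. Dams received tamoxifen at embryonic day 9.5 (E9.5), so YFP marks the descendants of cells that expressed *Pax7* around that time, whether or not they still do. No wild-type or Cre-free group was used, and every group carries the same alleles and received the same agent. Heads, limbs and viscera were removed, several embryos of a day were pooled, and YFP+ cells were sorted from embryos of E12.5, of E14.5 or of E16.5. Each day gave 1 10× library of unique molecular identifiers (UMIs) and several ss2 plates. After the limits of the methods 2921 10× cells (1017, 964 and 940 by day) and 931 ss2 cells remained, with a median depth per 10× cell of 2185, 5930 and 1607.5 UMIs. A median ss2 cell held 393416, 769833 and 829590 expected counts. 6 of the 10× cells shared a barcode with a cell of another library. A sorted bulk group, Pdgfra-/Cd36+ cells of E16.5, had 2 libraries of 24862787 and 32947290 reads.

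Clusters were built with the 10 genes and a list of other Wnt pathway genes left out, and were named from marker genes as EP-like (early progenitor), LP-like (late progenitor), DF-like (dermal fibroblast), BA-like (brown adipocyte), EM-like and LM-like (early and late muscle), N-like and NP-like (neuron and neural progenitor or glia) and PE-like (pericyte). A "pool" is 1 platform at 1 day, and a "sum" adds the counts of a class within a pool. Levels are given as CPM, the counts of a gene per 1000000 counts of the class sum. The 12 DF markers summed to 7185 CPM in DF-like and 776 CPM in LP-like 10× cells, and to 7701 and 1142 CPM on ss2. Markers of other classes moved with this contrast too. The 10 EM markers summed to 2387 CPM in LP-like and 330 CPM in DF-like 10× cells (5330 and 831 CPM on ss2), beside 3573 CPM in EM-like 10× cells, and the 10 EP markers to 3938 CPM in DF-like, 957 CPM in LP-like and 1532 CPM in EP-like 10× cells. *Crabp1* is in both the EP and the DF list, so it counts in both sums. The part of the EM and EP markers in the class differences was not tested. The 12 LP markers, mostly matrix genes, did not separate the same classes, with 7681 CPM in DF-like and 7427 CPM in LP-like 10× cells. Of the DF-like cells of E14.5, 97.2% lay in 1 cluster led by *Crabp1* and *Lum*, whereas 76.1% of those of E16.5 lay in another, led by *Twist2* and *a*, and metallothionein genes (*Mt1*, *Mt2*) and the chemokine gene *Cxcl1* were among its leading genes. LP-like cells changed in the same way, from clusters led by *Tnmd* and *Nppc* at E14.5 to one led by *Clec3b* at E16.5, and 1 EM-like cluster was led by the liver genes *Afp* and *Alb*.

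*Lef1* lies on chromosome 3 (131110471 to 131224356, plus strand, GRCm38), *Tcf7* on chromosome 11 (52252371 to 52283014, minus), *Tcf7l1* on chromosome 6 (72626378 to 72789254, minus) and *Tcf7l2* on chromosome 19 (55741820 to 55933654, plus). *Axin2* (108920349 to 108950783, plus) and *Notum* (120653788 to 120661175, minus) are both on chromosome 11. *Nkd1* is on chromosome 8 (88521354 to 88594884, plus), *Nkd2* on chromosome 13 (73818534 to 73847631, minus) and *Wif1* on chromosome 10 (121033960 to 121100650, plus). Lef/Tcf proteins recognise a short motif, searched here in its forms CTTTGAA and CTTTGAT, then also as CTTTGTA and finally CTTTGTT, on both strands in the 250 bases before each RefSeq start site (GRCm38.p6). The table used held 13 start sites of 8 of the 10 genes and none for *Notum* or *Apcdd1*. The motif was present before 2 of these 13 start sites, beside 14.8% of all 32841 start sites with 250 bases. Both were internal start sites inside the gene and outside its exons, one of *Lef1* and one of *Tcf7l2*. They are shown because they are the only windows of the 10 genes in this table that hold the motif, which is in capitals.
*Lef1*, chr3:131156044-131156293, plus strand: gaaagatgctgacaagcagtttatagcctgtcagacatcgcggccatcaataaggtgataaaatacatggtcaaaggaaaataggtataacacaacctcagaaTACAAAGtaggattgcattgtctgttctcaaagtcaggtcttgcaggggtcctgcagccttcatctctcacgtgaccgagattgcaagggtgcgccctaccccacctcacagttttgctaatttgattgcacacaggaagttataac
*Tcf7l2*, chr19:55895071-55895320, plus strand: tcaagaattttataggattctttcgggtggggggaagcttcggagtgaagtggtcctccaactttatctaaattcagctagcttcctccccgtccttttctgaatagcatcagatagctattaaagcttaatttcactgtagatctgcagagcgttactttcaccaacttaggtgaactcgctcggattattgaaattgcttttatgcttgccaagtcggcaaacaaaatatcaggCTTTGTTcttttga
The match of *Lef1* reads TACAAAG, the reverse complement of one of the forms searched, and that of *Tcf7l2* begins 14 bases before its start site. A match is a stretch of letters and was not tested as a binding site.

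**Figure D1:**
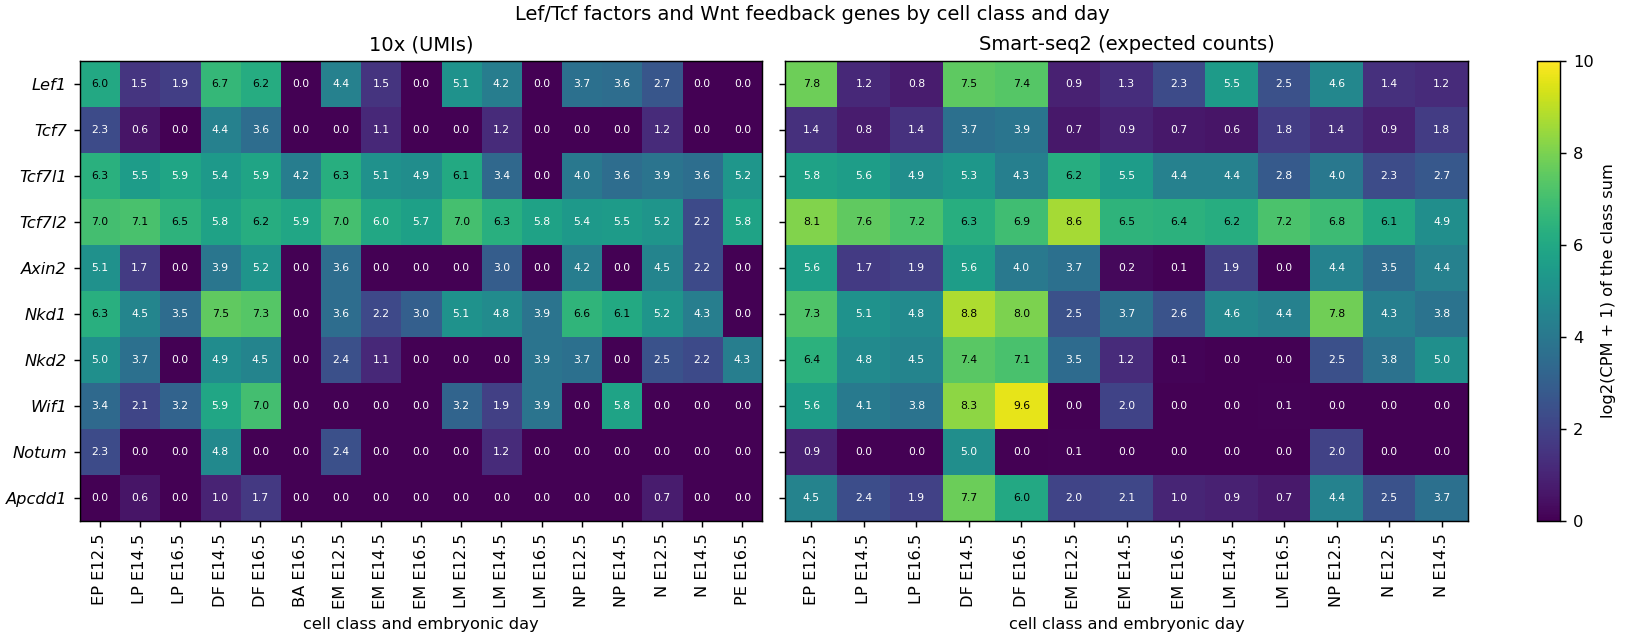
Heat map of the 10 genes (rows) in each class and embryonic day with at least 20 cells (columns), for 10× on the left and ss2 on the right, colored and labelled by log2(CPM + 1) of the class sum. *Lef1*, *Nkd1* and *Wif1* are each brighter in DF-like than in LP-like columns of the same platform, while *Tcf7l1* and *Tcf7l2* are present in nearly all columns.

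The 4 DNA-binding factors followed different patterns across the classes. *Lef1*, which acts mostly as an activator with β-catenin, had its 3 highest levels in the same classes on both platforms. On 10× it reached 100.97 CPM in DF-like cells of E14.5 (95% Poisson interval 82.2 to 122.7), 72.2 CPM in those of E16.5 (49.7 to 101.4) and 65.1 CPM in EP-like cells of E12.5 (45.1 to 90.9). On ss2 the order was EP-like (218.5 CPM), DF-like of E14.5 (180.6 CPM) and DF-like of E16.5 (164.9 CPM). The intervals of neighbors in the 10× order overlap, so the order within these 3 is not resolved. LP-like cells held 1.88 and 2.66 CPM on 10× (4 and 1 UMIs) and 1.24 and 0.69 CPM on ss2, and no UMI was found in BA-like cells of E16.5. Intervals, here and throughout, cover counting error only and not the difference between embryos.

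*Lef1* was also seen in a larger share of DF-like cells. At E14.5 36.7% of DF-like 10× cells held a *Lef1* UMI (exact binomial interval 29.4% to 44.6%, median depth 5479.5 UMIs), against 1.12% of LP-like cells of nearly the same depth (0.305% to 2.84%, median 5406) and 1.47% of EM-like cells (median 8077). Thinned to 1000 UMIs per cell, the shares were 8.43% and 0.279%. At E16.5 the thinned share was 6.57% of the DF-like cells deep enough and 0 of LP-like cells, where unthinned shares were 9.62% (6.58% to 13.4%, median depth 1366) and 0.427% (median 1460.5). Thinning left out 38 DF-like and 22 LP-like cells of E16.5 and none of E14.5. In ss2, where a cell was counted from 10 expected counts on, *Lef1* was found in 73.5% and 72.6% of DF-like cells by day and in 2.00% and 0 of LP-like cells.

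*Tcf7*, another activator-type factor and best known from T cells, was low, and its 2 highest levels were those of DF-like cells on both platforms. It reached 19.99 CPM (12.2 to 30.9) at E14.5 and 10.9 CPM (3.55 to 25.5) at E16.5 on 10×, and 11.8 and 13.7 CPM on ss2. In LP-like cells it was at 0.47 and 0 CPM on 10× and 0.69 and 1.66 CPM on ss2.

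*Tcf7l2* and *Tcf7l1*, the latter known mainly as a repressor, were found in every lineage. *Tcf7l2* was highest in LP-like cells of E14.5 on 10× (138.01 CPM, 122.7 to 154.8), closely followed by LM-like, EM-like (130.4 CPM) and EP-like (128.2 CPM) cells of E12.5, whose intervals include that level. On ss2 its order was EM-like of E12.5 (398.4 CPM), EP-like (273.3 CPM) and LP-like of E14.5 (187.1 CPM). Its lowest 10× level was 3.71 CPM in N-like cells of E14.5 (1 UMI). *Tcf7l1* was highest in EP-like and EM-like cells of E12.5, with 80.4 and 75.2 CPM on 10× and 53.3 and 74.9 CPM on ss2.

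DF-like cells were set against LP-like cells to ask whether the pathway's targets differ between dermal fibroblasts and the progenitors present on the same days. 4 pools held both classes, which gives 8 sums. The classes were drawn from the same cells as the values, and cells from several embryos are pooled, so the tests measure the spread between these pools and not between animals. Of all 14184 genes tested with edgeR's quasi-likelihood test, 11.5% passed an adjusted p of 0.05, 5.15% higher and 6.31% lower in DF-like cells. Of the 10 members 8 were higher, *Tcf7l2* was lower and *Tcf7l1* did not pass. The members were chosen with earlier results of these data known, so this count is not an independent test of them. The median log2 fold change was 3.69 over the members, the same with *Notum* at its bound, and -0.04 over all genes tested.

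**Figure D2:**
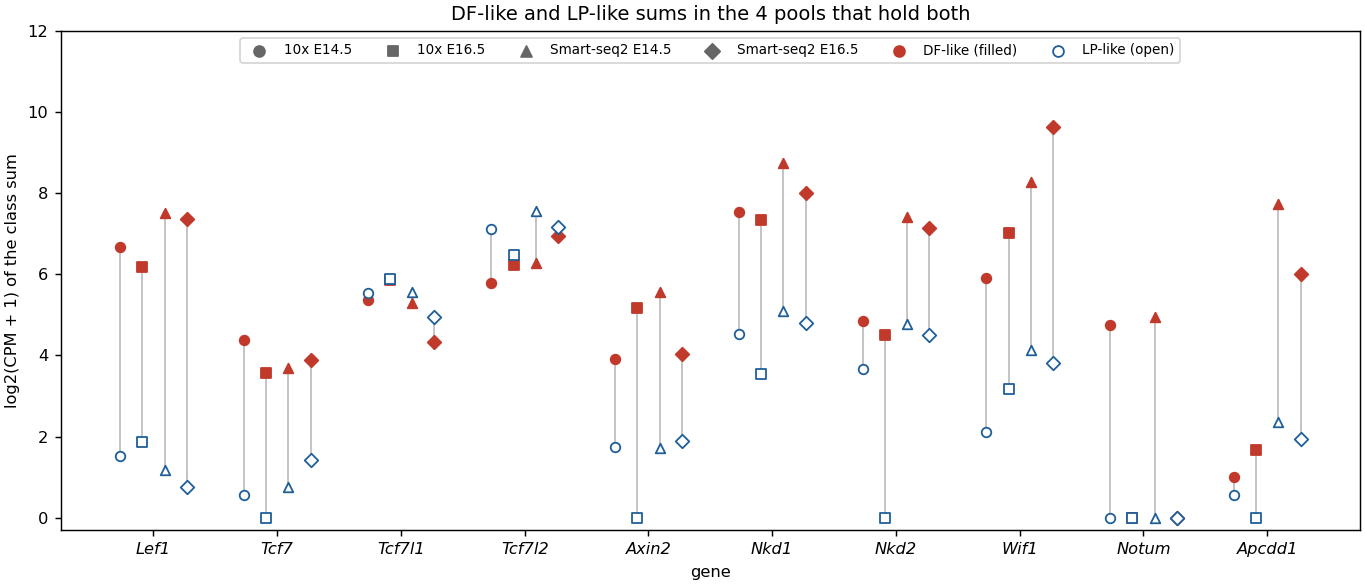
Levels of the 10 genes as log2(CPM + 1) in each of the 4 pools that hold both classes, filled red for DF-like and open blue for LP-like sums, with a line joining the sums of 1 pool. For *Lef1*, *Tcf7*, *Axin2*, *Nkd1*, *Nkd2*, *Wif1* and *Apcdd1* the filled symbol lies above the open one in 4 of 4 pools, and for *Tcf7l2* and *Tcf7l1* it lies below.

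*Lef1* was 7.30 ± 0.38 log2 units higher in DF-like sums (SE, 4 pools, edgeR adjusted p = 3.47e-06), with the values given above. Within the 10× pools the ratio was 53.6-fold at E14.5 (20.3 to 200.5) and 27.1-fold at E16.5 (4.54 to 1103). *Tcf7* was higher by 3.96 ± 0.62 (edgeR adjusted p = 0.00244). *Tcf7l1* was at 39.99 and 56.9 CPM on 10× and 38.4 and 19.2 CPM on ss2 in DF-like cells, beside 45.2, 58.6, 46.3 and 29.8 CPM in LP-like cells, a difference of -0.32 ± 0.20 (edgeR adjusted p = 0.356). The LP-like value was the larger one in 4 of 4 pools. *Tcf7l2* was at 53.98 and 74.4 CPM on 10× and 76.3 and 121.6 CPM on ss2 in DF-like cells, beside 138.01, 87.9, 187.1 and 143.995 CPM in LP-like cells. It was lower by -0.82 ± 0.23 (edgeR adjusted p = 0.0421), and at E16.5 the 10× ratio of 0.846 had an interval of 0.509 to 1.41 that includes no difference. This call was lost under several other settings, among them doublet removal (adjusted p = 0.0507) and leaving out the 10× pool of E14.5 (0.201), the 10× pool of E16.5 (0.0758) or the ss2 pool of E14.5 (0.111). LP-like cells were not uniform, with 180.3 CPM of *Tcf7l2* on 10× and 310.1 CPM on ss2 in the cluster led by *Nppc*. The clusters led by *Tnmd* and *Clec3b* held 118.7 and 88.7 CPM on 10× and 151.4 and 134.01 CPM on ss2. DF-like clusters held 34.2 to 88.1 CPM on 10× and 78.98 to 132.1 CPM on ss2.

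Feedback inside the cell is carried by *Axin2* and the Naked cuticle genes. *Axin2* encodes a scaffold of the destruction complex and is widely used as a readout of canonical Wnt activity. It was at 13.996 CPM (7.65 to 23.5) and 35.004 CPM (20.01 to 56.8) on 10× and 46.2 and 15.4 CPM on ss2 in DF-like cells, by day, against 2.36, 0, 2.27 and 2.72 CPM in LP-like cells. DF-like sums were higher in 4 of 4 pools, by 3.40 ± 0.54 log2 units (edgeR adjusted p = 0.00260).

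*Nkd1* and *Nkd2* encode proteins that bind Dishevelled, the relay between receptor and destruction complex. *Nkd1* was at 185.9 CPM (160 to 214.7) and 161.9 CPM (127.1 to 203.2) on 10× and 431.4 and 257.9 CPM on ss2 in DF-like cells, and at 22.1, 10.7, 32.99 and 26.7 CPM in LP-like cells. Every DF-like value lay above every LP-like value, and the difference of 3.41 ± 0.19 (edgeR adjusted p = 4.17e-06) had the smallest SE of the 10 members. *Nkd2* was at 27.99, 21.9, 170.6 and 140 CPM in DF-like and at 11.8, 0, 26.6 and 21.7 CPM in LP-like cells. The ss2 values of *Nkd2* exceeded the 10× values in both classes, so only values of 1 platform can be set side by side, and within pools DF-like sums were higher by 2.43 ± 0.33 (edgeR adjusted p = 0.00110). With the 10× pools alone the difference was 1.61 and did not pass (adjusted p = 0.0622).

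Secreted and membrane-bound inhibitors act before the receptor. *Wif1* encodes a secreted protein that binds Wnt ligands. In DF-like cells it was at 58.98 CPM (44.9 to 76.1) and 129.1 CPM (98.3 to 166.5) on 10× and 312.4 and 796 CPM on ss2, and in LP-like cells at 3.30, 7.99, 16.6 and 13.0 CPM. DF-like sums were higher by 4.92 ± 0.34 (edgeR adjusted p = 1.66e-05), and the 10× ratio was 17.9-fold at E14.5 (8.16 to 46.4) and 16.2-fold at E16.5 (5.27 to 80.6). *Apcdd1* (chromosome 18), a membrane inhibitor, was at 212.9 and 63.8 CPM on ss2 in DF-like and at 4.17 and 2.80 CPM in LP-like cells. The 10× sums held 1 UMI in each of the DF-like pools and 1 and 0 UMIs in LP-like pools, so the difference of 5.03 ± 0.46 (edgeR adjusted p = 8.98e-05) rests on ss2.

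*Notum* encodes a secreted enzyme that removes the lipid Wnt ligands need for binding. Among the named classes it was highest in DF-like cells of E14.5 on both platforms. It was at 25.99 CPM (16.98 to 38.1) on 10× and 30.1 CPM on ss2 in these cells, and at 0 in both DF-like sums of E16.5 and in all 4 LP-like sums. The next highest sums were EM-like cells of E12.5 on 10× (4.42 CPM, 2 UMIs) and NP-like cells of E12.5 on ss2 (2.94 CPM). At E14.5 10.8% of DF-like 10× cells held a *Notum* UMI (6.55% to 16.6%) and no LP-like cell did, a share of at most 0.838% by the floor of 3 counts. With a floor of 3 counts in the LP-like library sum, the 26 UMIs gave a bound of 18.4-fold more in DF-like cells. This bound leaves out counting error, and the exact interval of the ratio began at 13.9-fold. The edgeR test passed (adjusted p = 0.00231), but its fitted fold is not given because LP-like sums are at 0, and with DESeq2 or with each platform clustered alone the call was lost (adjusted p = 0.356 and 0.0664).

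Comparing genes with each other needs their length. Here it is the union of all annotated exons of a gene, which can exceed the length of the transcripts expressed. The order below holds for that length only. Per kilobase of exon, ss2 DF-like cells had the same first 4 genes on both days, *Wif1* (128.7 CPM per kb at E14.5 and 328.04 at E16.5), *Nkd1* (94.6 and 56.6), *Nkd2* (35.4 and 29.05) and *Lef1* (20.5 and 18.8). The order below them changed with the day. At E14.5 *Apcdd1* (16.525 CPM per kb) and *Notum* (12.51) followed, above *Tcf7l2* (8.69), and at E16.5 *Tcf7l2* (13.9) followed, above *Tcf7* (5.23) and *Apcdd1* (4.95), with *Notum* at 0. In LP-like cells *Tcf7l2* led with 21.3 and 16.4 CPM per kb and *Tcf7l1* followed with 11.8 and 7.59, while *Lef1* was at 0.14 and 0.079. A median DF-like ss2 cell held 7 of the 10 members with at least 10 counts at E14.5 (49 cells) and 6 at E16.5 (73 cells). The median LP-like cell held 2.5 (50 cells) and 2 (88 cells), and the median EP-like cell of E12.5 held 3. These EP-like cells were shallower, with a median depth of 246123 expected counts. The median was 1118221 and 879861 in DF-like cells and 984508 and 780112 in LP-like cells, by day. With a fixed limit of 10 counts, the EP-like number cannot be set beside the others. At least 5 members were held by 39 and 52 of the DF-like cells and by 4 and 1 of the LP-like cells.

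The DF-like sums of the 2 days are values of 1 pool per day and platform, so they are set side by side without a test. *Notum* was found at E14.5 (26 UMIs) and not at E16.5 (no 10× cell, so by the floor of 3 counts at most 0.962% of cells with a UMI and 6.56 CPM). The later library was shallower, with a median of 1366 UMIs per DF-like cell, beside 5479.5 at E14.5. On ss2 it was listed at 0 in each of 4 plates of E16.5 and at 0 to 37.7 CPM in 3 plates of E14.5.

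*Wif1* moved the other way. It was higher at E16.5 by 1.13 log2 units on 10× (0.58 to 1.68) and by 1.35 on ss2, where the plates ranged from 63.5 to 357.5 CPM at E14.5 and from 518.1 to 914 CPM at E16.5. *Apcdd1* on ss2 ranged from 130.2 to 236.7 CPM over plates at E14.5 and from 53.02 to 73.1 CPM at E16.5, and these ranges do not overlap. *Lef1* differed by -0.48 on 10× with an interval of -1.10 to 0.10. *Axin2* went in opposite directions on the platforms, with a later-minus-earlier difference of 1.32 log2 units on 10× (0.19 to 2.47) and of -1.59 on ss2, so no direction is given. Because the leading clusters of DF-like cells also changed between the days, day and cluster cannot be told apart.

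**Figure D3:**
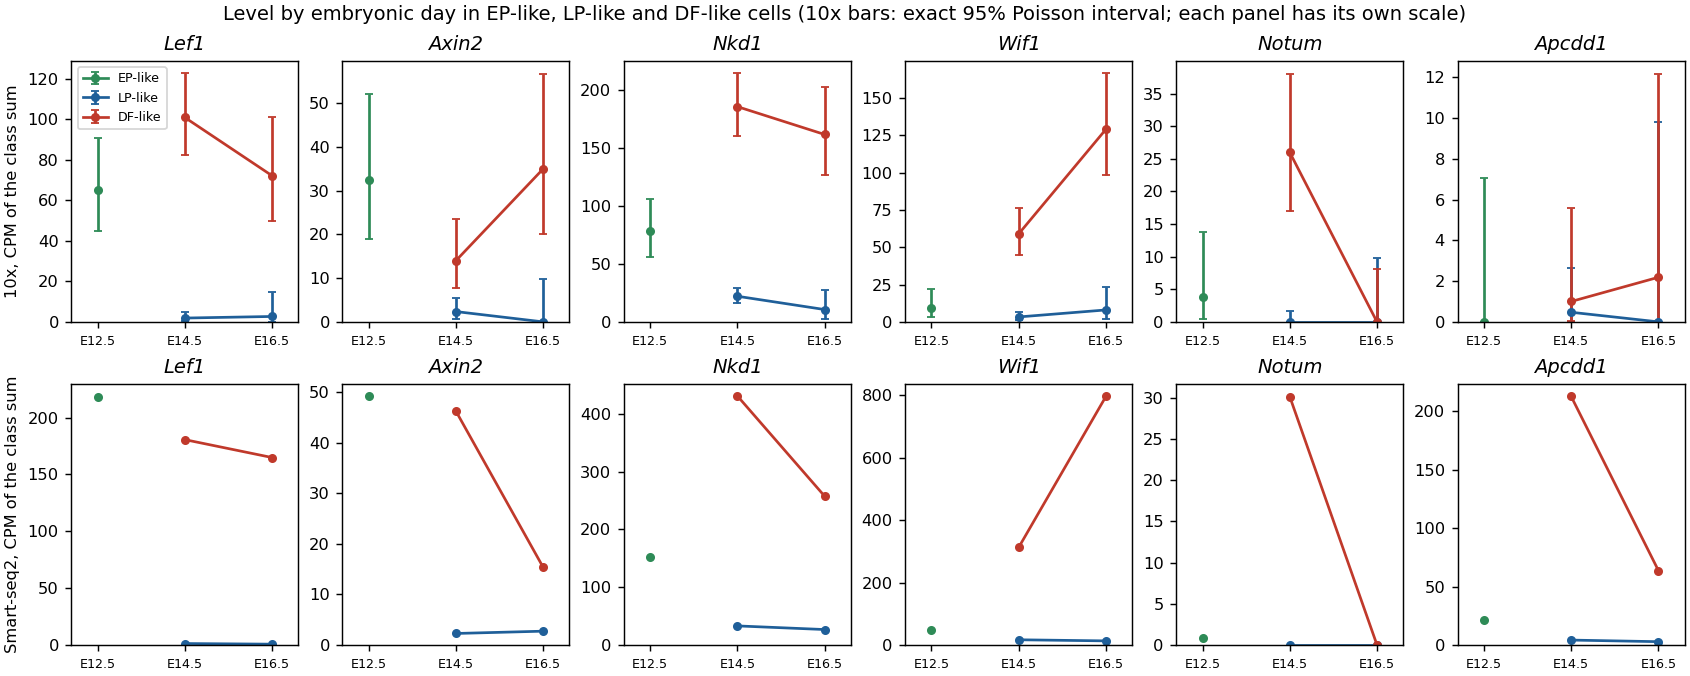
Level in CPM of the class sum by embryonic day for 6 members, 10× above with exact 95% Poisson intervals and ss2 below, in EP-like (green), LP-like (blue) and DF-like (red) cells, each panel with its own scale. *Notum* in DF-like cells is at 25.99 CPM on 10× and 30.1 CPM on ss2 at E14.5 and at 0 at E16.5, *Wif1* is higher at E16.5 on both platforms, and *Axin2* goes up on 10× and down on ss2.

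This class difference was also compared between the days, as an interaction chosen after the data had been seen. It differed for *Wif1* (1.56 ± 0.36 larger at E16.5, edgeR adjusted p = 0.00121) and *Tcf7l2* (1.09 ± 0.32, edgeR adjusted p = 0.0241), 2 of 10 members where 3.81% of all genes tested passed. With DESeq2 neither passed (adjusted p = 0.618 and 0.0977). The call of *Tcf7l2* was lost with any 1 of the 4 pools left out (adjusted p = 0.05005, 0.0633, 0.233 and 0.531). Without the ss2 pool of E16.5 the value for *Wif1* was -0.06, and with a coarser clustering it was -1.18 with an adjusted p of 0.0440, so its direction depends on how the classes are drawn.

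LP-like and EP-like cells address how the early progenitor differs from the later one. Sums of at least 20 cells came from E12.5 for EP-like and from E14.5 and E16.5 for LP-like cells, so class and day cannot be told apart. Over 6 sums, with the platform as a term, 5.76% of 14054 genes passed, 4.83% higher and 0.925% lower in LP-like cells. The LP-like sums of E14.5 and E16.5 stood as replicates of their class, and EP-like cells had no replicate within a platform. The p-values therefore measure the spread among these sums, and not between animals or within a day. 3 of the 10 members passed, and all 3 were lower in LP-like cells. The median over the members was -1.65, beside 0.11 over all genes.

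*Lef1* was lower by -6.75 ± 0.62 (edgeR adjusted p = 0.000182), from 65.1 CPM on 10× and 218.5 CPM on ss2 in EP-like cells to at most 2.66 CPM in LP-like cells. *Axin2* was at 32.5 CPM (18.95 to 52.1) on 10× and 49.2 CPM on ss2 in EP-like cells and at most at 2.72 CPM in LP-like cells, lower by -3.83 ± 0.60 (edgeR adjusted p = 0.00379). *Nkd1* went from 78.5 CPM (56.3 to 106.4) and 151.8 CPM to at most 32.99 CPM, lower by -1.84 ± 0.36 (edgeR adjusted p = 0.0117). EP-like and LP-like values of these 3 genes do not overlap on either platform. Without the EP-like ss2 sum none of the 3 calls remained (adjusted p = 0.379, 0.641 and 0.645), and without the EP-like 10× sum those of *Axin2* and *Nkd1* were lost (0.0559 and 0.0906).

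*Nkd2* (30.6 and 85.6 CPM in EP-like cells, -1.45 ± 0.53, edgeR adjusted p = 0.134) and *Wif1* (9.57 and 46.4 CPM, -1.06 ± 0.55, edgeR adjusted p = 0.317) did not pass. Nor did *Apcdd1*, with 0 and 21.5 CPM in EP-like cells. *Tcf7l2* differed by -0.06 ± 0.35 and *Tcf7l1* by -0.17 ± 0.35 (edgeR adjusted p = 0.954 and 0.861). *Notum* was found in EP-like cells with 2 UMIs on 10× and 0.90 CPM on ss2.

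**Figure D4:**
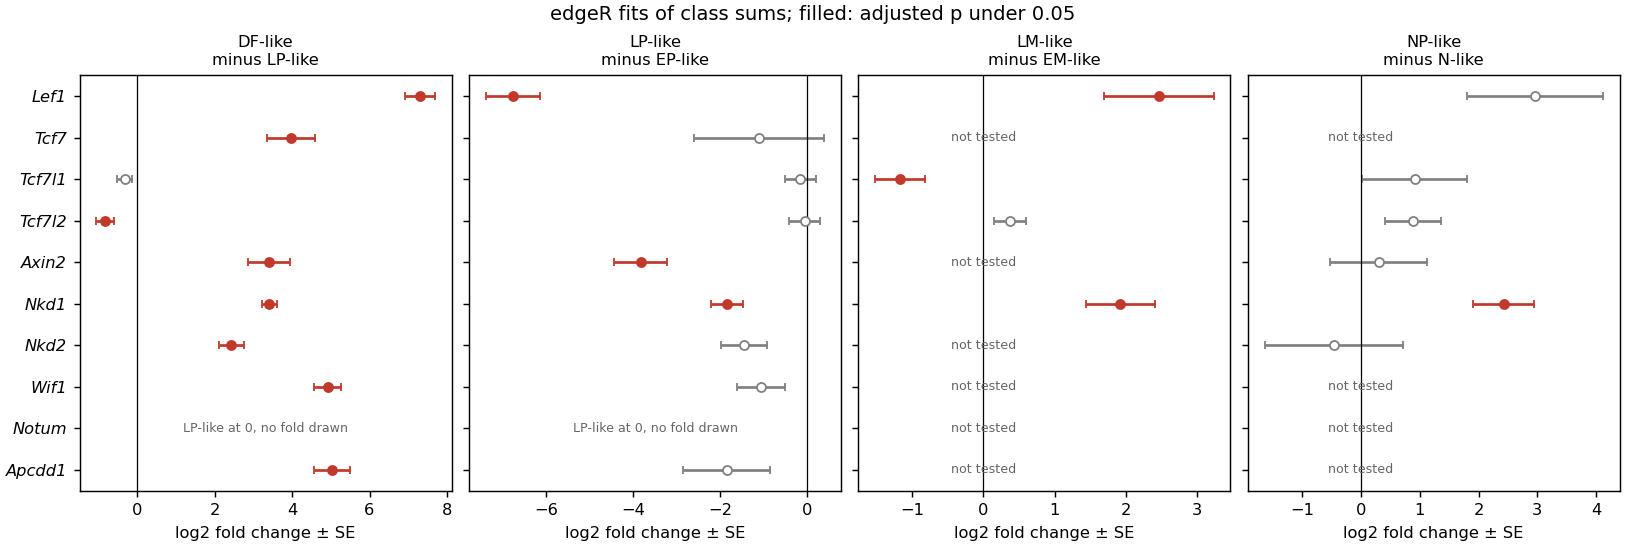
Fitted log2 fold changes ± SE (horizontal axes, with a scale for each panel) of the 10 genes (rows) in the 4 edgeR comparisons of class sums, filled where the adjusted p was under 0.05. In DF-like against LP-like sums 8 members stand to the right and pass, *Notum* by its test with no fold drawn, and *Tcf7l2* stands to the left, while in LP-like against EP-like sums *Lef1*, *Axin2* and *Nkd1* stand to the left.

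In the muscle lineage, LM-like cells (led by *Tnni1*, *Myl1* and *Myog*) were compared with EM-like cells in 5 pools. Only 4 members had enough counts to be tested, and 3 of them passed where 24.2% of 10005 genes did (11.6% higher and 12.6% lower). *Nkd1* was at 32.9, 27.1 and 13.5 CPM by day on 10× and 24.1 and 20.04 CPM on ss2 (E14.5 and E16.5) in LM-like cells. In EM-like cells of the same pools it was at 11.1, 3.62, 7.21, 12.1 and 4.96 CPM. LM-like cells were higher in 5 of 5 pools, by 1.92 ± 0.48 (edgeR adjusted p = 0.00384). *Lef1* was at 32.9, 17.6 and 0 CPM on 10× and 44.3 and 4.58 CPM on ss2 in LM-like cells, beside 19.9, 1.81, 0, 1.47 and 3.86 CPM in EM-like cells. It was higher by 2.46 ± 0.77 (edgeR adjusted p = 0.0203), and its ss2 level of E14.5 ranged from 1.71 to 80.7 CPM over 3 plates.

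*Tcf7l1* was lower in LM-like cells, by -1.17 ± 0.35 (edgeR adjusted p = 0.0142). It was at 65.7, 9.49 and 0 CPM on 10× and 19.8 and 6.14 CPM on ss2 in LM-like cells, beside 75.2, 32.6, 28.8, 45.3 and 20.1 CPM in EM-like cells, the larger in 5 of 5 pools. *Tcf7l2* differed by 0.37 ± 0.22 (edgeR adjusted p = 0.237). All 3 calls were lost without the 10× pool of E14.5 (adjusted p = 0.217 for *Lef1*, 0.0718 for *Tcf7l1* and 0.0956 for *Nkd1*), and that of *Lef1* also without the 10× pool of E12.5 (0.0571), the 10× pool of E16.5 (0.0631) or the ss2 pool of E14.5 (0.317). The value of *Lef1* moved to 1.34 without the ss2 pool of E14.5 and to 3.65 without that of E16.5.

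Within EM-like cells *Tcf7l2* and *Tcf7l1* were highest at E12.5. Each value is of 1 pool per day and platform, set side by side without a test. EM-like cells lay in more than 1 cluster, and their median ss2 depth was 222509, 727577 and 875490 expected counts by day. The part of cluster and depth in these levels was not tested. *Tcf7l2* went from 130.4 CPM (99.3 to 168.3) at E12.5 to 62.7 CPM (51.2 to 75.995) at E14.5 and 50.5 CPM (27.6 to 84.7) at E16.5 on 10×, and from 398.4 to 90.5 and 84.6 CPM on ss2. The step from E12.5 to E14.5 was -1.06 log2 units on 10× (-1.53 to -0.57) and -2.14 on ss2. For *Tcf7l1* the same step was -1.21 (-1.85 to -0.54) and -0.72. In ss2 the lowest E12.5 plate held 154.04 CPM of *Tcf7l2*, just above the highest E14.5 plate at 153.6 CPM.

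In the neural cells, NP-like cells (most in a cluster led by *Sox2* and *Pax3*) were compared with N-like cells in 3 pools. 6 members were tested and 1 passed, *Nkd1*, where 4.04% of 9943 genes did, 0.704% higher and 3.34% lower. *Nkd1* was at 92.97 and 66.4 CPM on 10× (E12.5 and E14.5) and 226.2 CPM on ss2 (E12.5) in NP-like cells, and at 36.6, 18.6 and 19.2 CPM in N-like cells. It was higher in 3 of 3 pools, by 2.43 ± 0.52 (edgeR adjusted p = 0.0385). This call was lost without the 10× pool of E14.5 (0.104), without the ss2 pool (1.42 log2 units, 0.0833), with doublets removed (1.10, 0.0579), with all deposited cells (1.08, 0.0720) and with each platform clustered alone (0.0837). *Lef1* was at 12.0, 11.1 and 23.5 CPM in NP-like cells and at 5.42, 0 and 1.60 CPM in N-like cells, 2.95 ± 1.16 with an edgeR adjusted p of 0.197. *Axin2* held 21.7 CPM (14.8 to 30.6) in N-like cells of E12.5 on 10×, close to its DF-like levels, and 10.6 CPM on ss2.

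BA-like and LP-like sums of at least 20 cells shared only the 10× pool of E16.5. In BA-like cells of that pool (504040 UMIs in all) 8 of the 10 members had 0 UMIs, at most 5.95 CPM by the floor of 3 counts, while LP-like cells of the same library held 1 UMI of *Lef1*, 4 of *Nkd1* and 3 of *Wif1* and none of *Tcf7*, *Axin2*, *Nkd2*, *Notum* or *Apcdd1*. The 14 BA-like ss2 cells of E16.5, too few for a sum, held 77.03 CPM of *Tcf7l2*, 10.4 of *Tcf7l1*, 2.80 of *Nkd1* and under 1 CPM of each other member. *Tcf7l1* was at 17.9 CPM in BA-like and 58.6 CPM in LP-like cells, -1.71 on the log2 scale with an exact interval of -3.02 to -0.54. *Tcf7l2* was at 59.5 and 87.9 CPM, -0.56 with an interval of -1.33 to 0.20 that includes no difference. With 1 pool there is no test between conditions.

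The sorted Pdgfra-/Cd36+ libraries of E16.5 carried the marker genes of brown fat, whose 10 BA markers summed to 32215 and 29631 CPM, beside 89.5 and 87.4 CPM for the 12 DF markers. *Cd36* itself was at 1510 and 1262 CPM and *Pdgfra* at 6.03 and 8.41 CPM. Of other cell types, the LP markers summed to 1384 and 1350 CPM, the pericyte markers to 503.8 and 594.6 CPM and the EP markers to 387.3 and 462.8 CPM. Hemoglobin genes and *Alas2* summed to 510.8 and 276.5 CPM and endothelial markers to 88.8 and 113.5 CPM, mostly *Pecam1*, and their part in the levels was not tested. The methods call libraries of this kind technical duplicates, so they count as 1 sample and no SD is given. *Tcf7l2* was at 77.1 and 92.1 CPM, *Tcf7l1* at 5.59 and 8.44 CPM and *Apcdd1* at 5.79 and 3.70 CPM. *Lef1* was at 2.78 and 3.88 CPM and *Tcf7* at 1.37 and 2.06 CPM.

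*Nkd1* (0.885 and 1.76 CPM), *Nkd2* (1.73 and 0.668), *Axin2* (0.563 and 1.00), *Wif1* (0.040 and 0.728) and *Notum* (0.080 and 0.425) were below 2 CPM in both libraries. *Wif1* was counted with 1 read in one library and 24 in the other. In bulk RNA fewer cells of a type and less RNA per cell cannot be told apart. The other bulk groups were not used here, so these levels are not set against a control sort.

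Other genes of the pathway were taken from 3 lists by role, 34 names in all, and are read against the 11.5% of all genes called in DF-like against LP-like sums. Of 10 genes of the destruction complex and its relay (among them *Ctnnb1*, *Apc*, *Gsk3b* and *Dvl1* to *Dvl3*), all tested, edgeR called 0, as did DESeq2, and 0 had an unadjusted p under 0.05. Of 11 tested nuclear partners edgeR and DESeq2 each called 1, the corepressor gene *Tle1*, lower by -1.50 ± 0.33 (edgeR adjusted p = 0.0145). The medians of these lists were -0.04 and -0.15, and lists of this size cannot set such counts apart from 11.5%.

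Of 10 tested genes known as further targets or feedback regulators 5 were higher and 1 lower, where 5.15% of all genes were higher and 6.31% lower (median 1.48, the same with *Sp5* at its bound). *Sp5*, a transcription factor gene that follows Wnt signals, was at 11.4 and 4.597 CPM on 10× and 36.99 and 10.9 CPM on ss2 in DF-like cells and at 0 in all LP-like sums, at least 7.73-fold in the 10× pool of E14.5 (edgeR adjusted p = 0.000564). *Dkk1*, a secreted inhibitor of the Lrp coreceptors, was at 36.3, 9.19, 30.99 and 34.6 CPM in DF-like and at 0.49, 0, 0.82 and 0.14 CPM in LP-like cells, 6.43 ± 0.63 log2 units higher (edgeR adjusted p = 0.000150). *Tnfrsf19* was higher by 4.58 ± 0.41 and *Kremen1*, a receptor for Dkk proteins, by 2.37 ± 0.19 (edgeR adjusted p = 8.29e-05 and 4.58e-05). These CPM are scaled to the 15147 genes of both tables. The fifth was *Ccnd1* (2.36 ± 0.21, edgeR adjusted p = 7.48e-05), and *Lgr4*, a receptor for R-spondins, was lower by -1.36 ± 0.34 (edgeR adjusted p = 0.0273).

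In the other comparisons these lists were small, and their counts are given beside the shares of all genes. Of 8 further targets or feedback genes tested in LM-like against EM-like sums, 1 was higher and 3 were lower, where 11.6% and 12.6% of all genes were. In LM-like against EM-like sums, where 24.2% of all genes passed, 3 genes over all lists were higher and 4 lower. The largest were *Ccnd1* at -1.96 ± 0.44 (edgeR adjusted p = 0.00131) and *Bambi* at -1.60 ± 0.53 (edgeR adjusted p = 0.0295). Among the nuclear partners *Aes* was lower and *Tle1* higher (-1.22 and 1.19, edgeR adjusted p = 0.000186 and 0.00396). In NP-like against N-like sums edgeR called 0 in each of the 3 lists (4.04% of all genes), while DESeq2 called 1, 0 and 2 (8.87%) and 1, 1 and 3 had an unadjusted p under 0.05. In LP-like against EP-like sums (5.76% of all genes) the 1 call of edgeR was *Tnfrsf19*, lower by -3.51 ± 0.60 (edgeR adjusted p = 0.00596).

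Over 30 class sums of both platforms and 13408 genes, the genes whose log2(CPM + 1) ran most like that of *Lef1* were *Nkd1* (Pearson r = 0.80), *Sp5* (0.75), *Sp7* (0.72), *Cxcl14* (0.72) and *Wnt6* (0.72). For *Axin2* they were *Tes* (0.80), *Cacna1g* (0.77), *B4galnt1* (0.76) and *Efna5* (0.75), and for *Tcf7l2* *Lzts2* (0.81), *Crlf3* (0.76), *Kank2* (0.74), *Aldh7a1* (0.74) and *Grb10* (0.74). The sums share platforms and pools, and these values describe likeness only. With values centred within each platform *Nkd1* stayed first for *Lef1* (0.80) and *Tes* for *Axin2* (0.79), while *Nme4* (0.79) came first for *Tcf7l2*.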

How the data were processed

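The members and gene lists were chosen with earlier results of these data known. The 10× table, as deposited by the authors, holds UMI counts per gene and cell from Cell Ranger, not scaled. The ss2 table, as deposited by the authors, holds expected counts that they estimated with kallisto (0.44.0 in the submitters' processing notes) and summed per gene, and these were rounded for tests. For the sorted bulk libraries the authors deposited read counts, and the counter is not given in the sources used here. Of the 18 bulk columns 16 have names that fit a Thy1+ and a Thy1- sample alike and were not used, so no bulk comparison was made.

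Of 3916 cells 3852 passed the methods' limits. These were a count of YFP, at most 8% mitochondrial counts, at least 4000 genes on ss2 and at most 15000 UMIs on 10×. Platforms were joined with Seurat 5.3.0 in R 4.3.3 (canonical correlation anchors on 2000 variable genes and 30 components, Louvain resolution 0.8, 42 members and listed pathway genes left out). Clusters were named by the marker list with the highest mean z-score, at a minimum of 0.4 with at least 3 markers found. These limits, the minimum of 10 expected counts for a ss2 cell to hold a gene, and a rule that left 1 cartilage-gene cluster unnamed, were set after seeing the data. Scrublet in scanpy 1.11.5 marked 8, 9 and 8 10× cells of the days in order as doublets, and these were kept in the reported values.

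Counts were summed per class and pool, sums under 20 cells were left out, and edgeR 4.0.16 was applied to the 15147 genes of both tables (its low-count filter, TMM, quasi-likelihood test, Benjamini-Hochberg adjustment over all genes tested, two-sided, threshold 0.05) with the pool as a block, or the platform as a term for LP-like against EP-like. SE is the log2 fold change divided by the root of the F statistic. In data simulated from the real means, 57% of genes changed 4-fold and 27% of those changed 2-fold were recovered for DF-like against LP-like (69% and 38% for LM-like against EM-like, 50% and 6% for NP-like against N-like, 35% and 2% for LP-like against EP-like). Of the simulated calls 17.6%, 17.1%, 20.0% and 26.0% were false, above the 5% the adjustment aims at. All 10 members are named. Of the other pathway genes the 4 largest called changes of a comparison were named, and for DF-like against LP-like also *Ccnd1*, *Lgr4* and *Tle1*, after their values were seen. The 5 genes most like *Lef1*, *Axin2* and *Tcf7l2* were named, of which 1 for *Axin2* is not reported here. *Aes* and *Tle5*, both listed, are names of 1 gene. Positions come from GENCODE vM21. Intervals were computed with scipy 1.17.1 in Python 3.11.15.

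Alternatives were DESeq2 1.42.0, no low-count filter, 10× pools alone, each pool or sum left out, resolutions 0.4 and 1.2, clustering that includes the left-out genes or treats the platforms separately, removal of doublets, use of all deposited cells, and 10× cells thinned to 1000 UMIs.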

Additional observations from a re-analysis of the deposited data

Results flagged for a closer look

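In LM-like against EM-like sums, the difference of *Apcdd1* in the ss2 pool of E14.5 stood apart from the other 4 pools, at -1.20 on the log2(CPM + 1) scale where the others ran from -0.32 to 0. It was the 1 pool marked among 20 groups of pools examined, and chance marks about 1 in 20. The class difference between DF-like and LP-like sums differed between E16.5 and E14.5 by an interaction test for *Tcf7l2* (1.09) and *Wif1* (1.56), the value of *Wif1* turns with the clustering, and the call of *Tcf7l2* was lost with any 1 pool left out.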

How the results depend on the processing

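In DF-like against LP-like sums *Lef1*, *Tcf7*, *Axin2*, *Nkd1*, *Wif1* and *Apcdd1* stayed higher and past the threshold under every alternative in which they could be fitted. *Apcdd1* was too low to be tested without the ss2 pool of E14.5 or without that of E16.5, so its call was not checked there. The number of members called was 9, 6 to 8 with a pool left out, and 5 with the 10× pools alone, where *Tcf7*, *Notum* and *Apcdd1* were too low to be tested. Other counts of members called moved more. In LM-like against EM-like sums 3 became 0 with 10× alone and ran from 0 to 3 with a pool left out. In NP-like against N-like sums 1 became 0 with 10× alone, each platform clustered alone, doublets removed or all cells kept, and ran from 0 to 1 with a pool left out. In LP-like against EP-like sums 3 became 1 with 10× alone and ran from 0 to 4 with a sum left out. For the interaction of class and day 2 became 0 with DESeq2, 1 with the left-out genes kept in the clustering, with each platform clustered alone and with doublets removed, and 0 or 1 with a pool left out.

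Directions turned for values near 0 or unstable ones. *Nkd2* in NP-like against N-like sums was -0.46, and 0.43 at resolution 0.4, 0.17 with doublets removed and 0.36 with all cells. In LP-like against EP-like sums *Tcf7l2* was 0.070 with 10× alone and -0.36 to 0.090 with a sum left out, *Tcf7l1* 0.092 at resolution 1.2, and *Wif1* 0.31 at resolution 0.4, 0.40 with the left-out genes kept, 0.15 with each platform alone and 0.29 with all cells. The interaction of *Wif1* was -1.18 at resolution 0.4, -0.89 with the left-out genes kept, -0.42 with each platform alone and -1.07 with all cells, and -0.062 to 1.68 with a pool left out. DF-like 10× levels of E14.5 were 131.4, 232.6 and 77.5 CPM for *Lef1*, *Nkd1* and *Wif1* at resolution 0.4 and 132.7, 237.98 and 80.7 CPM with doublets removed, and *Lef1* in LP-like 10× cells of E16.5 was 0 with each platform alone. The causes were not tested.

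The share of all genes called, as a percent of the genes tested in the reported fit, differed too. For DF-like against LP-like it was 11.5%, and 4.51% with 10× alone and 6.67% to 12.3% with a pool left out. For LM-like against EM-like it was 24.2%, and 8.73% with 10× alone, and without the 10× pool of E14.5 37.5% of the calls were higher, beside 48.01%. For NP-like against N-like it was 4.04%, with 17.4% of the calls higher. DESeq2 gave 8.87% (35.6% higher), no filter 11.0% (33.3%), 10× alone 1.76%, resolution 0.4 7.19% (50.8%), doublets removed 12.3% (37.6%), all cells 11.4% (36.4%) and a pool left out 1.76% to 12.49% (2.82% to 40.3%). For LP-like against EP-like it was 5.76% (83.9% higher), and 10.6% with DESeq2 (70.7%), 0.334% with 10× alone and 0 to 10.52% with a sum left out (70.8% to 87.1%). For the interaction it was 3.81% (38.6% higher), and 0.909% with DESeq2, 1.15% with each platform alone (25.8%) and 0.148% to 9.17% with a pool left out (26.2% to 47.6%).

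The class comparisons held the pool as a block, except LP-like against EP-like. For the numbered bulk replicates no paired analysis was possible because their columns could not be tied to a Thy1 label. The planned bulk comparisons and their alternatives were not run. A count of 0 in a 10× sum limits a level only to 3 counts, which is 5.95 CPM in BA-like cells of E16.5.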

Other observations

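The cluster left unnamed, led by the cartilage genes *Col2a1*, *Col9a3* and *Acan*, held 21 cells. In its 8 ss2 cells *Wif1* was at 1085 CPM, and in its 13 10× cells there were 2 UMIs of *Wif1* (27.9 CPM) and 3 of *Notum* (41.9 CPM). This *Notum* level rests on 3 UMIs and lies above the 25.99 CPM of DF-like 10× cells of E14.5. *Lef1* was at 14.4 CPM and *Nkd1* at 24.02 CPM in the same ss2 cells. These cells entered no comparison.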
